A study of Homo sapiens with 12 samples.

Results

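YAP1, WWTR1 (the gene of the protein TAZ), the DNA-binding factors TEAD1 and TEAD4, the target genes CTGF, CYR61 and ANKRD1, and the inhibitors AMOTL1, AMOTL2 and LATS2 were followed in HCT116 cells, from a colon carcinoma, and PANC1 cells, from a pancreatic ductal carcinoma. These 10 genes were taken by name from the 34687 gene rows of the table. CTGF and CYR61 are the names the table uses for CCN2 and CCN1, and the row named TAZ, an older name of another gene, was not used for WWTR1. Each line was kept for 12 or 96 h in the solvent alone (0.05% DMSO, the control) or in 10 uM of a drug, which was ICG-001 or C646. ICG-001 keeps the co-activator CBP from binding β-catenin, and C646 inhibits the histone acetyltransferase activity of CBP and of its relative p300. RNA was hybridised to Illumina HumanHT-12 v4 BeadChips, and each of the 12 combinations of line, treatment and time was 1 column of signal intensities. By the labels 11 columns were the authors' means of 2 arrays and the PANC1 ICG-001 12 h column of 3, while the study's methods describe independent cultures in duplicate throughout.

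YAP and TAZ are co-activators of the Hippo pathway that cannot bind DNA themselves and act through TEAD factors. When cells are crowded, the kinases MST1 and MST2 activate LATS1 and LATS2, which phosphorylate YAP and TAZ so that they are held in the cytoplasm or degraded. When the pathway is quiet, YAP and TAZ enter the nucleus and switch on genes for secreted matrix proteins such as CTGF and CYR61, together with AMOTL2 and LATS2, whose products hold YAP back. Because this control acts on the proteins, transcript levels of YAP1 and WWTR1 do not report their activity, and the pathway is usually read from the targets.

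With 1 column per group there was no spread between replicates, so differences are given as sizes without a test. A gene was read in a comparison when either column lay above the detection limit, and it was called at a ratio of 1.5 or more. The limit of a column was a signal between 143.5 and 144.3 for HCT116, or between 135.2 and 137.9 for PANC1, and 15439 to 16459 genes per column lay above it. The log2 ratios of genes that never passed the limit in a line varied with an SD of 0.06 to 0.07, which is the spread of background and not of replicate cultures. The lines were probably normalized apart, so signals are compared within a line and are given for both lines side by side without a ratio. Background was left in the signal by the authors, and ratios of dim genes therefore understate their differences.

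Line markers were checked first. In HCT116 the epithelial genes EPCAM and CDH1 and the intestinal factor CDX2 were above the limit in all 6 columns, whereas the intestinal genes VIL1, CDH17 and LGALS4 were at or under it in all 6. In PANC1 the mesenchymal filament gene VIM read 14637 to 18144, and KRT8, KRT18 and KRT19 were above the limit in all 6 columns. The keratin and epithelial genes do not part the lines, since the 3 keratins were above the limit in all 6 HCT116 columns too, and EPCAM, CDH1 and CDX2 in all 6 PANC1 columns. VIM was above the limit in all 6 HCT116 columns as well, at 257.2 to 335.1. ZEB1, the fifth PANC1 marker, was above it in 5 PANC1 columns and in 0 of HCT116. The intestinal genes went the other way, since LGALS4 was above the limit in 5 PANC1 columns and CDH17 in 2, while VIL1 was in 0. The leukocyte marker PTPRC was under the limit in all 12 columns. The fibroblast collagen gene COL1A1 read 172.9 to 216.9 in HCT116 and 181.0 to 378.8 in PANC1.

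Of the 10 genes, 6 were above the limit in HCT116 (YAP1, WWTR1, TEAD4, CTGF, CYR61 and AMOTL2). In PANC1 ANKRD1 and LATS2 joined these, and TEAD1 was above the limit in 1 column, which made 9. AMOTL1 was under the limit in all 12 columns, at 117.7 to 138.9. In HCT116 0 of 6 reached 1.5-fold in any of the 4 comparisons with DMSO, where 1.23% to 5.17% of all genes were called in a given direction. In PANC1 1 gene did so in each of 3 comparisons, where the share in a given direction was 1.19% to 4.00%. At such shares a list of 6 to 9 genes would hold few calls or none, so these counts do not set the genes apart from the rest.

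**Figure D1:**
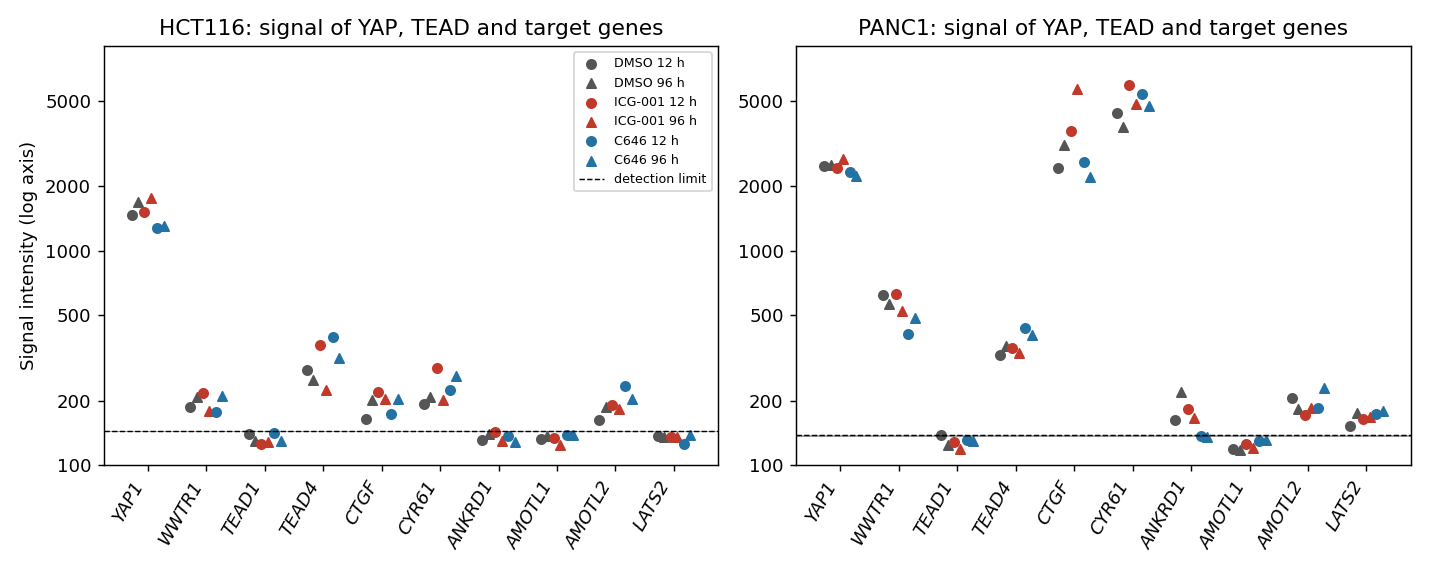
Signal intensity (log axis) of the 10 genes in the 6 columns of HCT116 (left) and of PANC1 (right), 1 point per column, with circles for 12 h, triangles for 96 h, grey for DMSO, red for ICG-001 and blue for C646. The dashed line is the highest detection limit of the line's columns. CTGF and CYR61 read 164.8 to 285.2 in HCT116 and 2212 to 5937 in PANC1, and the PANC1 ICG-001 96 h column has the highest CTGF signal.

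The co-activator YAP1 was well above background in both lines. In HCT116 its signal at 12 and 96 h was 1469 and 1681 under DMSO, 1516 and 1766 under ICG-001, and 1276 and 1309.8 under C646. In PANC1 it was 2472 and 2504 under DMSO, 2432 and 2660.4 under ICG-001, and 2327 and 2219 under C646. Both C646 columns were thus the lowest of the 6 in each line. Among all genes above the limit, 6.61% had both C646 columns lowest in HCT116 and 13.5% did in PANC1. The log2 ratio of C646 over DMSO for 12 and 96 h was -0.20 and -0.36 in HCT116, and for PANC1 it was -0.09 and -0.17, all under 1.5-fold. With ICG-001 the log2 ratio of YAP1 lay between -0.02 and 0.09 in the 4 comparisons.

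WWTR1, which encodes TAZ, was dim in HCT116, at 177.4 to 216.7. In PANC1 its signal at 12 and 96 h was 619.5 and 565.5 under DMSO, 626.0 and 525.0 under ICG-001, and 407.8 and 486.5 under C646. The C646 columns were again the lowest of the 6. After 12 h of C646 WWTR1 was 1.52-fold lower than under DMSO, just past the threshold, and it was the 1 of 9 genes called there. In that comparison 2.70% of all genes were called lower and 4.00% higher, and 0 of the 5 PANC1 markers were called. KRT8 at a log2 ratio of -0.56 and KRT18 at 0.49, and COL1A1 at 0.54 lay near the threshold, and their part in the WWTR1 value was not tested. After 96 h of C646 the log2 ratio was -0.22, and under ICG-001 it was 0.02 and -0.11.

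The TEAD factors bring YAP and TAZ to DNA. TEAD1 could hardly be read, since it was above the limit in 1 of 12 columns, PANC1 DMSO 12 h, at 138.7. TEAD4 in HCT116 read 278.1 and 249.4 under DMSO, 362.1 and 223.7 under ICG-001, and 397.6 and 317.3 under C646. Its signal in PANC1 was 325.6 and 360.7 under DMSO, 353.5 and 334.8 under ICG-001, and 435.1 and 402.6 under C646. The signal under C646 lay above that under DMSO at both times in both lines, by a log2 ratio of 0.52 and 0.35 in HCT116, and for PANC1 of 0.42 and 0.16. In PANC1 both C646 columns were the highest of the 6, as they were for 13.2% of all genes above the limit. No ratio of TEAD4 over DMSO reached 1.5-fold.

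CTGF and CYR61 encode secreted matricellular proteins of the CCN family and are the usual readouts of YAP and TAZ, and ANKRD1 encodes an ankyrin repeat protein that acts in the nucleus and in the sarcomere. The promoters of CTGF and ANKRD1 are shown because they hold more than 1 copy of the letters that TEAD factors bind, GGAATG. Sequences are from RefSeq (assembly GRCh38.p14, minus strand of the chromosome, written 5′ to 3′), and capitals mark GGAATG. The CTGF stretch lies at chr6:131951452-131951551 and runs from 179 to 80 bases before the transcription start, and the ANKRD1 stretch lies at chr10:90921200-90921317 and runs from 230 to 113 bases before it.
CTGF: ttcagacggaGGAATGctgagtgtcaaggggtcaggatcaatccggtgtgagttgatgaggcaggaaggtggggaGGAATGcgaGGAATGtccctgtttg
ANKRD1: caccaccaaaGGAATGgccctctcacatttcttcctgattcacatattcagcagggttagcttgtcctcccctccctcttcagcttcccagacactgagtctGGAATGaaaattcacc

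Promoter windows of 300 bases, from 250 before to 50 after the start, were found for 7 of the 10 genes and were searched for GGAATG on both strands. CTGF had 3 matches, beginning 169, 104 and 95 bases before the start, and ANKRD1 had 2, beginning 220 and 128 bases before it. YAP1, LATS2 and the second start of AMOTL2 had 1 match each, and WWTR1 and AMOTL1 had 0. Of 35116 promoter windows, 14.0% held the letters at least once, 1.37% at least 2 times and 0.128% at least 3 times. TGANTCA, with any base at N, is a loose form of the letters bound by AP-1 factors such as JUN and FOS. It was in the ANKRD1 window once, as TGATTCA, and in 7.71% of all windows. It shares no bases with the GGAATG matches there. A match is a description of the letters, and binding was not measured in these data.

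**Figure D2:**
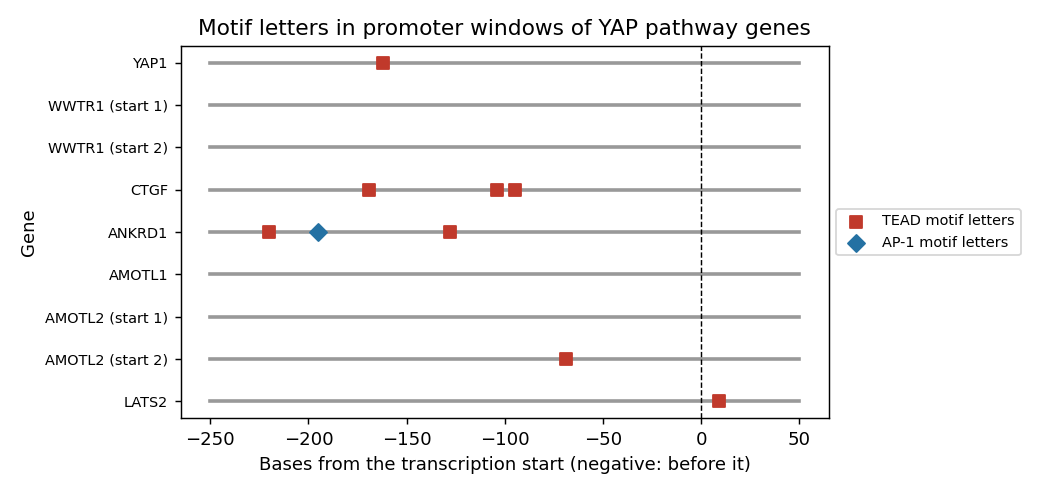
Position of GGAATG (TEAD motif letters, red squares) and TGANTCA (loose AP-1 motif letters with any base at N, blue diamond) in the promoter windows of 7 genes, in bases from the transcription start (dashed line, negative values before it). Grey lines are the windows searched. CTGF has 3 GGAATG matches and ANKRD1 has 2, more than the other windows.

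With the background left in the signal, CTGF had the largest ratio of ICG-001 over DMSO among the 10 genes, in PANC1 at 96 h. After normexp background correction, which stretches dim genes, the largest was that of CYR61 in HCT116 at 12 h (log2 0.96), followed by CTGF in PANC1 at 96 h (log2 0.88). In PANC1 the CTGF signal at 12 and 96 h was 2429 and 3103 under DMSO, 3613 and 5645 under ICG-001, and 2585 and 2212 under C646. Both ICG-001 columns were higher than the other 4, a pattern that 9.38% of all genes above the limit shared. After 96 h of ICG-001 CTGF was 1.82-fold higher than under DMSO (log2 ratio 0.86), a larger difference than that of 97.7% of the genes read in that comparison. It was the 1 of 8 genes called there, where 3.86% of all genes were called higher and 3.57% lower. After 12 h it was 1.49-fold higher (log2 0.57), just under the threshold, and 0 of 9 genes were called, beside 2.18% of all genes higher and 0.336% lower. C646 left CTGF at a log2 ratio of 0.09 at 12 h and -0.49 at 96 h.

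Epithelial markers moved in the same PANC1 column in which CTGF was highest. After 96 h of ICG-001, 2 of the 5 PANC1 markers were called lower, KRT8 with a log2 ratio of -1.06 and KRT19 with -1.17, and 0 were called higher. The summed signal of the 5 markers was 35714 to 35895 under DMSO, 22905 to 30454 under ICG-001 and 34408 to 35445 under C646. EPCAM was also lower (log2 -0.78). Their part in the CTGF result was not tested. Fewer cells of a type and less RNA per cell cannot be told apart in such columns.

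In HCT116 CTGF was close to background in every column. Its signal at 12 and 96 h was 164.8 and 201.8 under DMSO, 218.4 and 203.6 under ICG-001, and 172.3 and 204.4 under C646. The DMSO 12 h column was the lowest, and the other DMSO column was about as high as both drug columns of its time. The log2 ratio of ICG-001 over DMSO was 0.41 at 12 h and 0.01 at 96 h. Those of C646 were 0.06 and 0.02.

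CYR61 stayed under 1.5-fold in all 8 comparisons with DMSO. In PANC1 its signal at 12 and 96 h was 4383 and 3767 under DMSO, 5937 and 4829 under ICG-001, and 5377 and 4747 under C646. Both DMSO columns were lower than all 4 drug columns, as they were for 13.5% of all genes above the limit. The log2 ratios were 0.44 and 0.36 under ICG-001 and 0.30 and 0.33 under C646, so each drug column was 1.23- to 1.35-fold above its DMSO column. In HCT116 CYR61 read 192.2 and 208.0 under DMSO, 285.2 and 202.3 under ICG-001, and 223.2 and 261.4 under C646. The 12 h ICG-001 column was the highest and lay 1.48-fold above DMSO, just under the threshold, while the 96 h ICG-001 column had a log2 ratio of -0.04. The share of all genes called in HCT116 under ICG-001 was 4.86% higher and 4.19% lower in the 12 h comparison, and 5.17% higher and 5.14% lower in the 96 h comparison, with 0 of 6 of these genes called in either. For C646 in HCT116, where again 0 of 6 were called, it was 2.61% higher and 1.54% lower in the 12 h comparison, and 1.91% higher and 1.23% lower in the 96 h comparison.

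CTGF and CYR61 therefore parted under C646 in PANC1 at 96 h, where CTGF had a log2 ratio of -0.49 and CYR61 one of 0.33. ANKRD1, too, was below DMSO in that comparison. It was at or under the limit in all HCT116 columns, and in PANC1 its signal at 12 and 96 h was 162.4 and 218.6 under DMSO, 182.8 and 166.5 under ICG-001, and 137.1 and 135.5 under C646. Both C646 columns were the lowest of the 6 and lay close to the limit. After 96 h of C646 ANKRD1 was at least 1.61-fold lower than under DMSO, where the bound comes from the limit of the C646 column. It was the 1 of 8 genes called there, beside 2.82% of all genes higher and 1.19% lower. After 12 h of C646 the log2 ratio was -0.24, and under ICG-001, where CTGF was above DMSO at both times, ANKRD1 had 0.17 and -0.39. Of the 2 markers of other cells, COL1A1 was called higher in the same comparison (log2 0.65) and PTPRC was at background. Their summed signal was 296.1 to 357.4 under DMSO and 380.7 to 493.0 under C646, and their part in this result was not tested.

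**Figure D3:**
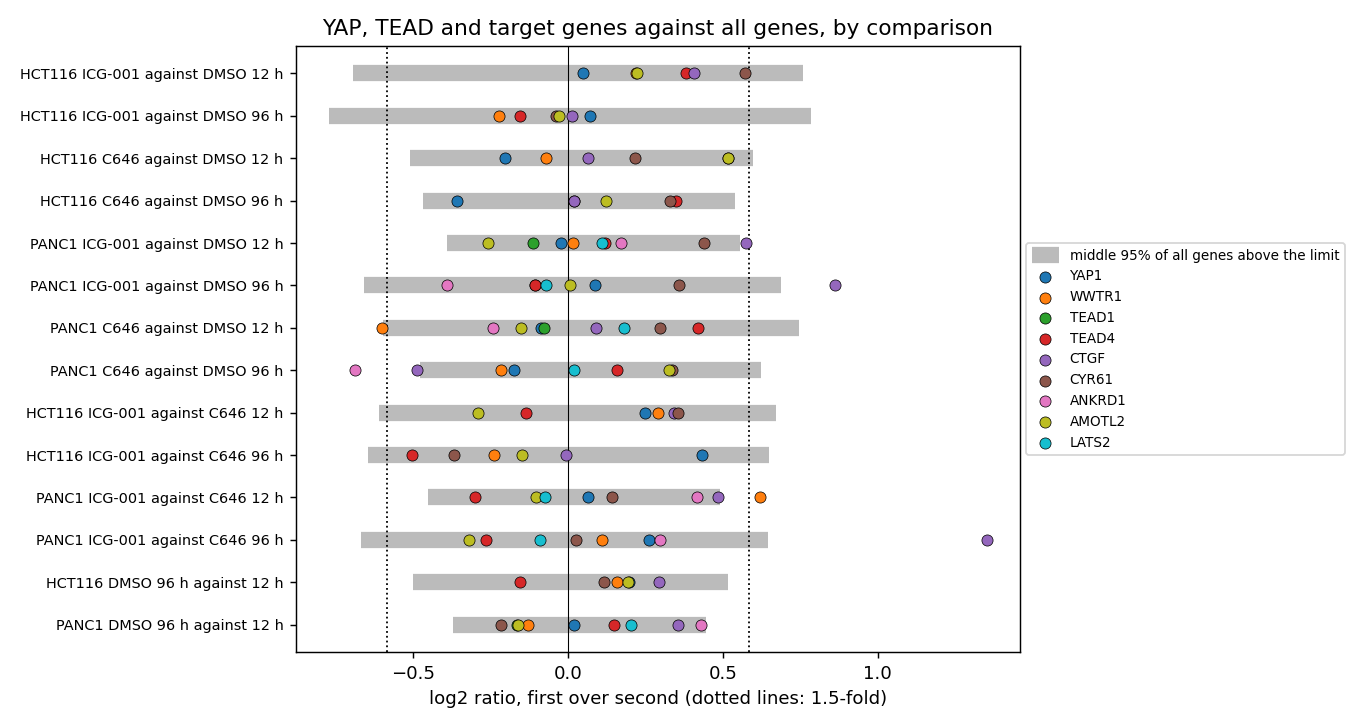
Log2 ratio of the genes above the limit in each of 14 comparisons, 1 coloured point per gene, with a grey bar for the middle 95% of all genes read in that comparison and dotted lines at 1.5-fold. Points of nearly equal value lie on top of each other. Of the 10 genes, CTGF lies farthest out, in PANC1 at 96 h under ICG-001 against DMSO (0.86) and against C646 (1.35).

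AMOTL2, an angiomotin family scaffold that keeps YAP at junctions and is itself a YAP target, was low in both lines. In HCT116 its signal at 12 and 96 h was 163.0 and 186.3 under DMSO, 190.2 and 182.6 under ICG-001, and 232.9 and 202.6 under C646. Both C646 columns were the highest of the 6, as for 6.79% of all genes above the limit, and the log2 ratio at 12 h was 0.51. In PANC1 it read 205.0 and 183.2 under DMSO, 171.4 and 183.9 under ICG-001, and 184.4 and 229.6 under C646, with no treatment apart from the others at both times. The kinase gene LATS2 was at or under the limit in HCT116. In PANC1 it read 152.9 and 175.9 under DMSO, 164.7 and 167.4 under ICG-001, and 173.3 and 178.2 under C646.

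The drugs were set against each other directly, at the same dose and time and without a DMSO column. CTGF gave the widest gap, since in PANC1 at 96 h it was 2.55-fold higher under ICG-001 than under C646 (log2 1.35). That was a larger difference than for 99.7% of the genes read, and CTGF was the 1 of 8 genes called where 6.80% of all genes were. KRT8, KRT18, KRT19, EPCAM and CDH1 were called lower in the same comparison, with log2 ratios from -1.23 to -0.62, and their part was not tested. At 12 h in PANC1 WWTR1 was 1.54-fold higher under ICG-001, the 1 of 8 called where 2.50% of all genes were, and CTGF had a log2 ratio of 0.48. In HCT116 0 of 6 genes were called at 12 h, beside 6.30% of all genes, and 0 of 6 at 96 h, beside 6.53%. The nearest to the threshold there was TEAD4, at a log2 ratio of -0.50 at 96 h. The log2 ratio of CYR61 was 0.35 and -0.37 for HCT116 at 12 and 96 h, and for PANC1 it was 0.14 and 0.02.

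Cell density is a known input of this pathway, and the 96 h cultures were started sparser than the 12 h cultures and passaged before they became crowded. Time, density and passaging cannot be told apart in the DMSO columns. Between DMSO 96 h and 12 h, 0 of 6 genes were called in HCT116 and 0 of 9 in PANC1, beside 3.13% and 1.31% of all genes. In PANC1 ANKRD1 had a log2 ratio of 0.43 and CTGF one of 0.35 at 96 h over 12 h, larger differences than those of 95.7% and 92.2% of the genes read. CYR61 went the other way, at -0.22. In HCT116 CTGF had the largest of these ratios, 0.29.

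The rest of the pathway was read from lists of genes, of which 61 of 62 had a row. Of the other TEAD genes and the VGLL genes, whose products compete for TEAD, 3 of 6 were above the limit in HCT116 after 12 h of ICG-001. There TEAD2 was lower (log2 -0.76, from 1140.2 to 675.0) and VGLL4 higher (log2 0.61, from 485.3 to 739.5). In that comparison 4.86% of all genes were called higher and 4.19% lower. In the other 7 comparisons with DMSO 0 of the 3 or 4 genes read were called, a list too short to set against 0.336% to 5.17% of all genes in a given direction. In the DMSO columns alone, TEAD2 was lower at 96 h than at 12 h in HCT116 (log2 -0.67) and higher in PANC1 (log2 0.59), beside 3.13% and 1.31% of all genes called there in either direction.

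The core kinase cassette, which holds the MST kinases STK3 and STK4, their partner SAV1, LATS1 and the MOB1 genes, stayed under 1.5-fold under both drugs with 1 exception. SAV1 was lower after 96 h of ICG-001 in HCT116, at 364.0 against 573.4 (log2 -0.66). It was 1 of 6 rows where 5.14% of all genes were called lower. SAV1 was also below DMSO in the other HCT116 comparisons, without reaching 1.5-fold. At 12 h it read 365.1 under ICG-001 and 320.4 under C646 against 466.3 under DMSO. At 96 h it read 385.0 under C646. After 96 h of ICG-001 in HCT116 all 6 rows of the cassette above the limit were lower than under DMSO. Their median log2 ratio was -0.35 beside 0.01 over all genes. The rows MOBK1B and MOBKL1B are both MOB1A, so the 6 rows are not 6 separate genes. In the DMSO columns of HCT116, STK3 was higher at 96 h than at 12 h, at 2020.5 against 1266 (log2 0.67), beside 3.13% of all genes called. Among the casein kinases and ubiquitin ligase subunits that drive YAP breakdown, CSNK1E was the 1 of 4 called, in PANC1 after 96 h of ICG-001 (log2 0.72), where 3.86% of all genes were called higher.

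Of the 25 upstream regulators, 21 to 23 were above the limit in each comparison and 0 to 3 were called, beside 0.336% to 5.17% of all genes in a given direction in the comparisons with DMSO. FAT1, an atypical cadherin that feeds into the pathway at the membrane, was the most regular of them. In HCT116 its signal at 12 and 96 h was 5104 and 7142 under DMSO, 3096 and 4448 under ICG-001, and 3034 and 4726 under C646. It was lower in all 4 comparisons, with log2 ratios of -0.72 and -0.68 for ICG-001 and -0.75 and -0.60 for C646. In PANC1 FAT1 read 3267 and 3248 under DMSO, 3162 and 3039 under ICG-001, and 2989 and 3614 under C646, and no ratio reached 1.5-fold.

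WWC1, which encodes KIBRA, an activator of the LATS kinases, was higher in HCT116 under C646 at both times. Its signal at 12 and 96 h was 539.0 and 519.0 under DMSO, 795.5 and 594.6 under ICG-001, and 836.0 and 786.8 under C646. The log2 ratios of C646 over DMSO were 0.63 and 0.60. At 96 h of ICG-001 in HCT116 the scaffold genes AMOT (log2 -0.72) and MPP5, now PALS1 (log2 -0.63), were lower. AMOT was also called higher at 96 h than at 12 h in the DMSO columns of HCT116, beside 3.13% of all genes called. It read 410.3 against 266.8 there, and 249.9 after 96 h of ICG-001. In PANC1 the polarity gene LLGL1 was higher after 96 h of ICG-001 (log2 0.77), and the polarity gene SCRIB (log2 0.67) and the kinase gene TAOK1 (log2 0.63) were higher after 12 h of C646. TAOK1 read 180.0 under DMSO at 12 h but 263.1 at 96 h, and at 12 h it read 264.1 under ICG-001 beside 278.1 under C646. SCRIB, too, was above its 12 h DMSO signal of 358.6 after 12 h of ICG-001, at 494.4, without reaching 1.5-fold.

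Other target genes of YAP and TAZ, 17 from a published signature, were read beside CTGF, CYR61 and ANKRD1. In HCT116 under ICG-001, 4 of 11 above the limit were called higher at 12 h, beside 4.86% of all genes, and 4 of 12 at 96 h, beside 5.17%. None of the list was called lower at either time, beside 4.19% and 5.14% of all genes. These were AXL, F3, GADD45A and NT5E at each time. The median log2 ratio of the list was 0.22 at 12 h and -0.05 at 96 h beside 0.00 and 0.01 over all genes, and the remaining genes above the limit stayed under 1.5-fold at both times.

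AXL, a receptor tyrosine kinase, read 442.3 and 403.8 under DMSO in HCT116, 1307 and 995.3 under ICG-001, and 499.0 and 418.7 under C646. The log2 ratio of ICG-001 over DMSO was 1.56 at 12 h and 1.30 at 96 h, and C646 stayed near DMSO. NT5E, the ecto-enzyme CD73, read 460.9 and 605.2 under DMSO, 1319 and 2168 under ICG-001, and 529.5 and 733.9 under C646. Its log2 ratio was 1.52 and 1.84 under ICG-001 and 0.20 and 0.28 under C646.

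F3, which encodes tissue factor, the starter of coagulation, was higher with both drugs in HCT116. It read 278.2 and 386.6 under DMSO, 758.8 and 1020.8 under ICG-001, and 446.1 and 664.4 under C646. The log2 ratios were 1.45 and 1.40 under ICG-001 and 0.68 and 0.78 under C646. GADD45A, a growth arrest gene that p53 and other stress factors also induce, read 749.8 and 1055 under DMSO, 2221 and 2508 under ICG-001, and 692.1 and 1610.3 under C646. Its log2 ratio was 1.57 and 1.25 under ICG-001 and -0.12 and 0.61 under C646.

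**Figure D4:**
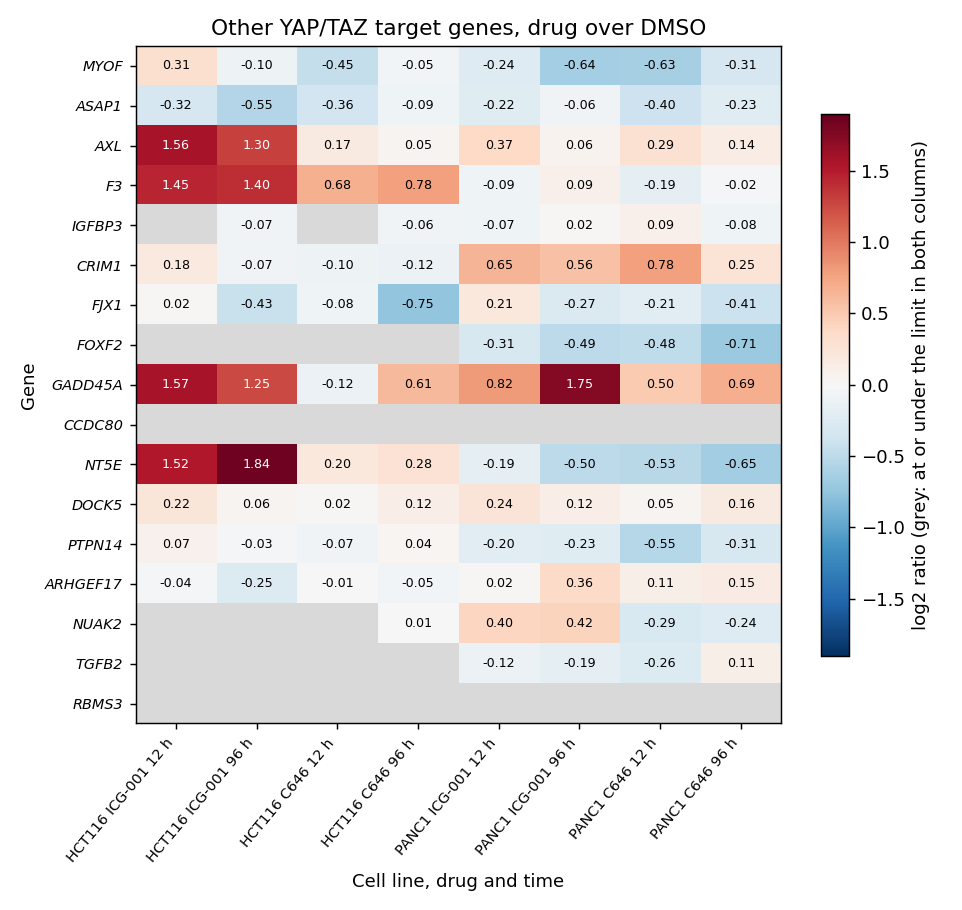
Log2 ratio of drug over DMSO for 17 other YAP/TAZ target genes (vertical axis) in the 8 comparisons (horizontal axis), with red for higher, blue for lower and grey where neither column passed the limit. AXL, F3, GADD45A and NT5E are higher in both HCT116 ICG-001 comparisons, from 1.25 to 1.84, and of these GADD45A is also higher in both PANC1 ICG-001 comparisons.

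In PANC1 GADD45A was higher under ICG-001, with a log2 ratio of 0.82 at 12 h and 1.75 at 96 h, and after 96 h of C646 (log2 0.69). Its signal was 637.0 and 654.2 under DMSO, 1121 and 2202 under ICG-001, and 898.1 and 1055 under C646. CRIM1, a BMP-binding membrane protein gene, was higher at 12 h under ICG-001 (log2 0.65) and under C646 (log2 0.78). NT5E was lower after 96 h of C646 (log2 -0.65), as was the forkhead factor gene FOXF2 (log2 -0.71). MYOF, a membrane repair gene, was lower after 96 h of ICG-001 (log2 -0.64) and 12 h of C646 (log2 -0.63), but its second row, under the older name FER1L3, gave -0.32 and -0.35 and would not have been called.

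The medians of the 17 genes in PANC1 were -0.07 and 0.02 under ICG-001 and -0.21 and -0.08 under C646 at 12 and 96 h, among 15 genes above the limit. Under ICG-001 2 of 15 were called higher and 0 lower at 12 h, beside 2.18% and 0.336% of all genes. At 96 h 1 was higher and 1 lower, beside 3.86% and 3.57%. Under C646 1 was higher and 1 lower at 12 h, beside 4.00% and 2.70%. At 96 h of C646 1 was higher and 2 lower, beside 2.82% and 1.19%. With C646 in HCT116, 1 of 11 was called higher at 12 h, F3, beside 2.61% of all genes. At 96 h 2 of 13 were called higher, F3 and GADD45A, beside 1.91%, and 1 lower, FJX1 (log2 -0.75), beside 1.23%. Between DMSO 96 h and 12 h 0 of 12 in HCT116 and 0 of 15 in PANC1 were called, beside 3.13% and 1.31% of all genes. Set against C646, ICG-001 gave 5 of 11 called in HCT116 at 12 h and 4 of 13 at 96 h, beside 6.30% and 6.53% of all genes in either direction. In PANC1 it gave 1 of 15 and 2 of 15, beside 2.50% and 6.80%, and all of these calls in both lines were higher under ICG-001. The other CCN genes WISP1, WISP2 and WISP3, which share the family of CTGF and CYR61, were under the limit in HCT116, and 0 of the 2 above it in PANC1 were called.

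The genes most like CTGF over the 12 columns were sought by Pearson's r of log2 signals, after the mean of each line was removed, among 2438 genes that varied by 1.5-fold or more in both lines. They were RAB3IL1, an exchange factor of RAB3 proteins (r 0.90), OPTN, an autophagy receptor gene (r 0.87), and S100P, a calcium-binding protein gene (r 0.87). The middle 95% of r over these genes ended at 0.74. CTGF and CYR61 did not themselves meet the filter. In HCT116 they varied only 1.33- and 1.48-fold, near background. CTGF varied 2.55-fold in PANC1, so its HCT116 columns add less to r than its PANC1 columns. CYR61 varied 1.58-fold in PANC1, close to its span in HCT116, so its r rests on the near-background HCT116 columns as well. In PANC1 S100P read 133.7 and 162.7 under DMSO, 265.5 and 411.5 under ICG-001, and 130.2 and 151.5 under C646. Both ICG-001 columns were the highest of the 6, while the 12 h DMSO and C646 columns lay under the limit. In HCT116 S100P passed the limit only under ICG-001, at 236.3 and 223.5, and so entered the search through those columns. It read 129.1 and 133.4 under DMSO and 129.3 and 131.1 under C646. CTGF did not follow it there at 96 h, with 203.6 under ICG-001 and 201.8 under DMSO. For CYR61 the most like were EIF2C2, now AGO2, an Argonaute gene (r 0.80), the row LOC730167 (r 0.79) and NT5C, a nucleotidase gene (r 0.75), where that range ended at 0.57. The columns of a line share their normalization, and these values describe likeness only.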

How the data were processed

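RNA of HCT116 and PANC1 cells was measured on BeadChips. Per the study's methods and processing notes, the authors exported signal intensity from GenomeStudio (version not given in the sources used here) after quantile normalization, with the background left in, and deposited the mean intensity of the arrays of each group. Values of single arrays were not used here. Columns were grouped by the labels.

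Log2 ratios were taken between columns. To set a detection limit, 2.33 SD of the values below the peak of a column's log2 signal density (bandwidth 0.02) were added to that peak. Members, gene lists and markers were chosen with earlier results of these data known. Beyond the 10 genes, the text names list genes called the same way at 12 and 96 h with 1 drug in 1 line, at most 5 per list, and the 3 genes most like CTGF or CYR61. Other genes were named after their values were seen. CCN3 was not analysed here.

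Alternatives were thresholds of 1.2- and 2-fold, no filter, a limit at 5 SD, normexp (offset 16), median-centred ratios and quantile normalization over all columns. Scripts were tested on simulated data and used Python 3.11.15, numpy 2.4.6, pandas 2.3.3, scipy 1.17.1, matplotlib 3.10.9, and limma 3.58.1 in R 4.3.3.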

Additional observations from a re-analysis of the deposited data

Results flagged for a closer look

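Of 85 gene rows of the lists, markers included, 58 were above the limit in all 8 comparisons with DMSO. NT5E and ARHGEF17, both other YAP/TAZ targets, and the fibroblast marker COL1A1 lay on one side of DMSO in all 4 comparisons of HCT116 and on the other side in all 4 of PANC1. NT5E had a mean log2 ratio of 0.96 in HCT116 and -0.47 in PANC1, a difference of 1.43, and its single ratios ran from 0.20 to 1.84 in HCT116 and from -0.65 to -0.19 in PANC1. ARHGEF17 had means of -0.09 and 0.16, a difference of -0.246, with single ratios from -0.25 to -0.01 in HCT116 and from 0.02 to 0.36 in PANC1. None of these reached 1.5-fold, and several were within the SD of background of 0.06 to 0.07. COL1A1 had means of -0.10 and 0.40, a difference of -0.493, with single ratios from -0.20 to -0.02 in HCT116 and from 0.15 to 0.65 in PANC1. No such difference was tested, since each ratio rests on 1 column per group and the drugs share their DMSO columns. Of all 13500 genes above the limit in all 8 comparisons, 260 showed such opposite directions and 2924 had the same direction in all 8.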

How the results depend on the processing

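The number of the 10 genes called depended mainly on the fold threshold and on the background. At 1.2-fold, the counts with ICG-001 against DMSO were 3 at 12 h in HCT116, and 2 and 3 at 12 and 96 h in PANC1. C646 gave 2 and 3 calls for HCT116, and for PANC1 it gave 3 and 4. ICG-001 against C646 gave 4 and 3 for HCT116, and for PANC1 it gave 4 and 4. DMSO 96 h against 12 h gave 1 and 2. Many of all genes pass so low a threshold, and how many differs between comparisons. Just under it, VIM in HCT116 after 12 h of ICG-001 (log2 -0.25) differed more than 65.9% of the genes read. The target gene TGFB2 in PANC1 after 12 h of C646 (log2 -0.26) differed more than 72.6%. AMOTL2 in PANC1 after 12 h of ICG-001 (log2 -0.26) differed more than 82.3%, so fewer genes pass there. The counts at 1.2-fold are given without the share of all genes and are not read as a response of the 10 genes. At 2-fold the calls of CTGF (ICG-001 96 h), WWTR1 (C646 12 h, and ICG-001 against C646 12 h) and ANKRD1 (C646 96 h) in PANC1 ended, each leaving 0, and CTGF against C646 at 96 h stayed called. After normexp correction, which spreads dim genes, the counts with ICG-001 against DMSO were 2 at 12 h in HCT116 (CTGF and CYR61), and 1 (CTGF) and 2 (CTGF and ANKRD1) in PANC1. With C646 they were 2 at 12 h in HCT116 (TEAD4 and AMOTL2), and 2 (WWTR1 and ANKRD1) and 2 (ANKRD1 and AMOTL2) in PANC1. ICG-001 against C646 gave 1 (CTGF) and 2 (TEAD4 and CYR61) for HCT116, and for PANC1 it gave 2 and 2. DMSO 96 h against 12 h gave 1 (CTGF) and 1 (ANKRD1). The counts after normexp correction, too, are given without the share of all genes and are not read as a response of the 10 genes. Quantile normalization over all columns brought CYR61 in HCT116 and CTGF in PANC1, both at 12 h of ICG-001, past 1.5-fold, for 1 call each. Both lay just under the threshold before, and the share of all genes under that setting is not given. The 14 counts were unchanged without a filter, with the limit at 5 SD and with centred ratios. Of 154 log2 ratios of the 10 genes and medians of the 17 other targets, 87 moved by at least the background SD after normexp correction, 4 without a filter, 4 with the limit at 5 SD, 2 with quantile normalization over all columns and 0 with centred ratios. Counts of calls in the other lists were not recomputed under these settings. No called value changed sign. No paired analysis was possible because each group had 1 column that was already a mean of replicates, and for the same reason no array could be left out. The number of arrays and the nearness of WWTR1 in HCT116, AMOTL2, LATS2 and ANKRD1 to the background limit the precision.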
